A study of Mus musculus with 10 samples.

Results

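Kinesins, cytoplasmic dynein and dynactin move cargo and organise microtubules, and the transcription start sites (TSSs) of their genes were looked up in the ARID2-enriched TSS lists of synchronized mouse testes. Genes were taken by symbol, as every mouse protein-coding gene named Kif followed by a digit, Kifc, Klc1 to Klc4, Dync, Dynl or Dctn, together with Pafah1b1, Nde1 and Ndel1. Among the 21774 protein-coding genes that RefSeq annotates on mm10 (GRCm38.p6) the rule found 71, of which 37 lie on the plus and 34 on the minus strand. ARID2 is the DNA-binding subunit that defines PBAF, a form of the SWI/SNF chromatin remodeler, and BRG1 is the ATPase of the same complexes. CUT&RUN, in which an antibody directs a nuclease to cut out the DNA near its target, was performed on testis cells enriched for spermatocytes in late prophase-I and metaphase, of wild-type CD1 males. All mice received WIN 18,446, a blocker of retinoic acid synthesis, at 100 µg per g of body weight from postnatal day 1 to 10 and retinoic acid on day 11, so that their germ cells advanced together. Cells were collected at P28 and P28.5, which is 17 and 17.5 days after retinoic acid, with 2 ARID2 libraries, 2 BRG1 libraries and 1 control library without primary antibody at each age.

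At each age the authors grouped TSSs by k-means on the replicate-averaged ARID2 signal over the control, and deposited the TSSs of cluster-1 (Cl-1), the ARID2-enriched cluster. The lists held 11553 rows at P28 and 8514 at P28.5, each a position with a gene name. They give membership alone, with no signal and no value per library. From the lists alone there is thus no replicate spread, no depth behind a single TSS and no test between the ages, and a gene in 1 list alone is not shown to differ in ARID2 signal between the ages. The signal tracks of the libraries were not analysed here, and the lists hold no marker expression against which to check the cell type. Where a listed position matched the annotation it was almost always the lower coordinate of a transcript, and this bears on strand. Of the 7144 distinct positions at P28, 45.1% coincided with a plus-strand 5′ end in RefSeq, 10.3% with a minus-strand 3′ end and 0.0840% with a minus-strand 5′ end. At P28.5, with 5193 distinct positions, these shares were 51.4%, 1.39% and 0.0963%. A minus-strand gene was therefore seldom listed at its own start, and the counts of listed genes are therefore also given by strand.

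Motor proteins convert ATP hydrolysis into steps along microtubules. Most kinesins walk toward the microtubule plus end and kinesin-14 motors toward the minus end, while cytoplasmic dynein, with its cofactor dynactin, is the main minus-end-directed motor. In dividing spermatocytes kinesins build and position the spindle and complete cytokinesis, and dynein focuses spindle poles. Kinesin-2 with dynein-2 carries the material from which cilia and flagella are built.

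The DNA around listed starts is shown for 8 genes, chosen so that spindle, ciliary, dynein, dynactin and regulator genes and all 3 listing patterns are seen. Each window holds 150 bases before an annotated 5′ end and 30 bases from that end on, in mm10 on the plus strand, which is the strand of all 8 genes, and capitals mark the listed positions that fall in it. Listed at both ages were these 3 genes.
Kif15 (chr9:122950931-122951110): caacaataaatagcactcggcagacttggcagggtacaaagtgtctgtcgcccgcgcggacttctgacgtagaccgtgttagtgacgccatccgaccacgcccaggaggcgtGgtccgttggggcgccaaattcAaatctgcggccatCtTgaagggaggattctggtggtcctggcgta
Kif14 (chr1:136466151-136466330): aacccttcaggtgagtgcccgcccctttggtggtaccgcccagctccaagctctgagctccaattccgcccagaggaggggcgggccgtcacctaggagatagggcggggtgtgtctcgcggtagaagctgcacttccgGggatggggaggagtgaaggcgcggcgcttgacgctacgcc
Kif3a (chr11:53567219-53567398): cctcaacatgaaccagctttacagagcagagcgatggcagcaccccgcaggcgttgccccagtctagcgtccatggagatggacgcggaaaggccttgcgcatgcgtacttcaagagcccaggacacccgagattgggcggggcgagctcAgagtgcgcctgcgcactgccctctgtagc
Listed at P28 alone were the following pair.
Kif20b (chr19:34922185-34922364): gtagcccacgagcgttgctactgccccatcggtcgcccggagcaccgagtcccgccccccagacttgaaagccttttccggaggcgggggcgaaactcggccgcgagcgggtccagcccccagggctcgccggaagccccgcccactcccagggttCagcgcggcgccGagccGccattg
Nde1 (chr16:14163125-14163304): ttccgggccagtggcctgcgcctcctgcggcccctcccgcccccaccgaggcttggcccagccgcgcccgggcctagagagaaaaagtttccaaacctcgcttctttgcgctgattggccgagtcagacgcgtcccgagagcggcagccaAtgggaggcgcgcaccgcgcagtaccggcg
Listed at P28.5 alone were these 3 genes.
Kif18a (chr2:109280588-109280767): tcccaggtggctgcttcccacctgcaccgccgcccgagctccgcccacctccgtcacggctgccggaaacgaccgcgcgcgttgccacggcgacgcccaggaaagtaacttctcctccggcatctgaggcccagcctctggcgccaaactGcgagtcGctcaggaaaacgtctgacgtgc
Dync1h1 (chr12:110601245-110601424): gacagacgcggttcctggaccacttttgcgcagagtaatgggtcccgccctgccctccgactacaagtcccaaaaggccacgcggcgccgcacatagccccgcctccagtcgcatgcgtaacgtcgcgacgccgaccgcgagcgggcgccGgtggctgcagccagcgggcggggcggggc
Dctn5 (chr7:122132891-122133070): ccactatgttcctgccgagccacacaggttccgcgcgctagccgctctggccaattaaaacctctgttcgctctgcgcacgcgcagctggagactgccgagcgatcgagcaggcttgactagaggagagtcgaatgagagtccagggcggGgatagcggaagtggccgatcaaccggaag
The windows were rich in CpG dinucleotides, from 13 in Kif3a to 25 in Dync1h1, and their GC content ran from 57.8% in Kif15 to 72.8% in Kif20b. The 4 capitals of Kif15 lie within 39 bases of each other, and the single capital of Kif14 lies 11 bases before the annotated start.

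By name, 16 of the 71 motor genes were in either list (22.5%, beside 19.9% of all genes) and 55 in neither. At P28, 11 genes were listed (15.5%, 95% Wilson interval 8.88% to 25.7%), beside 16.8% of all protein-coding genes. At P28.5, 12 genes were listed (16.9%, 9.94% to 27.3%), beside 11.6% of all. The intervals cover counting error only, and both hold the share of all genes. The 7 genes at both ages were Kif3a, Kif3b, Kif9, Kif14, Kif15, Kif20a and Kifc5b, which is 9.86% of the motor genes beside 8.48% of all genes. Kif20b, Dync1li1, Nde1 and Klc2 were at P28 alone, 4 genes or 5.63% beside 8.33% of all. Kif18a, Dync1h1, Dync1i2, Dctn5 and Kifc2 were at P28.5 alone, 5 genes or 7.04% beside 3.13% of all. Of the motor genes listed at P28, 63.6% were also listed at P28.5, and of those listed at P28.5, 58.3% were also listed at P28. For all genes these shares were 50.5% and 73.1%.

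**Figure D1:**
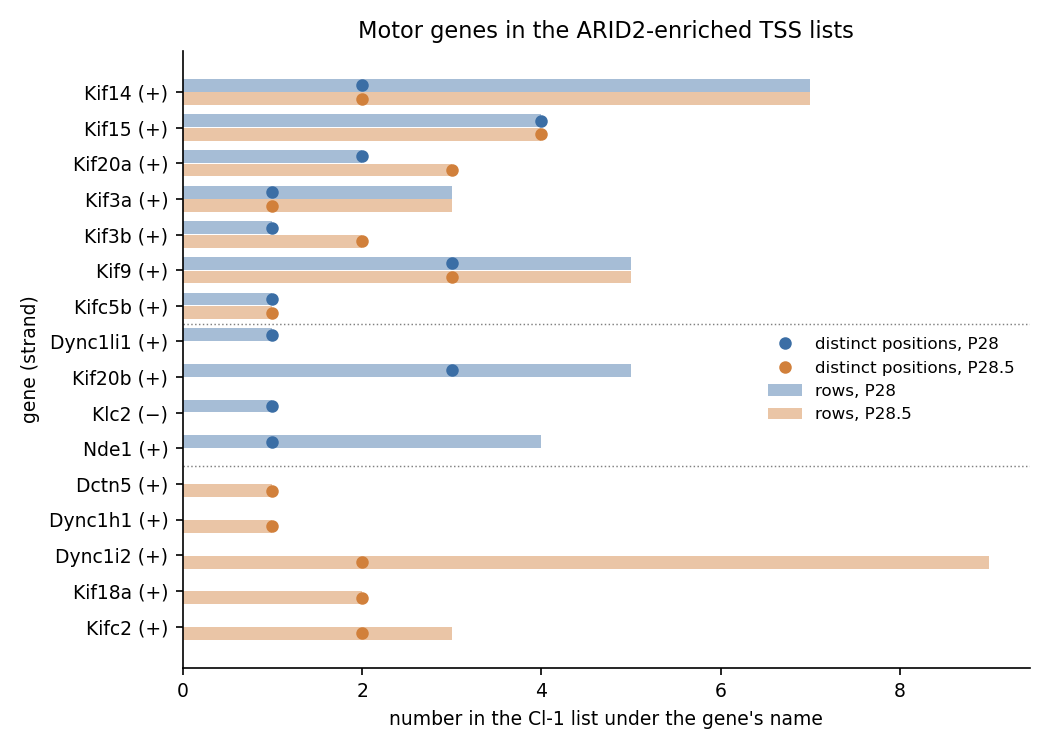
Number of rows (bars) and of distinct positions (points) under each listed motor gene's name at P28 and P28.5, with the gene's strand in brackets. Dotted lines part the 7 genes of both ages from the 4 and 5 of a single age; Dync1i2 had the most rows, 9 at 2 positions.

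All but 1 of the 16 listed motor genes, Klc2, lay on the plus strand. On the plus strand, 10 of 37 were listed at P28 (27.0%, 15.4% to 43.0%) beside 26.0% of all plus-strand genes, and 12 of 37 at P28.5 (32.4%, 19.6% to 48.5%) beside 20.4%. On the minus strand, 1 of 34 was listed at P28 (2.94%, 0.521% to 14.9%) beside 7.61% of all minus-strand genes, and 0 of 34 at P28.5 (0% to 10.2%) beside 2.86%. A separate rule, which lets a count of 0 stand for up to 3 counts, gives an upper bound of 8.82% in place of the Wilson 10.2%. The share of all genes lay inside each of these 4 Wilson intervals. It lay outside for the plus-strand motor genes at P28.5 alone, 5 of 37 (13.5%, with an interval from 5.91% up) beside 5.54%; over both strands the interval was 3.05% to 15.4%, which holds 3.13%.

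**Figure D2:**
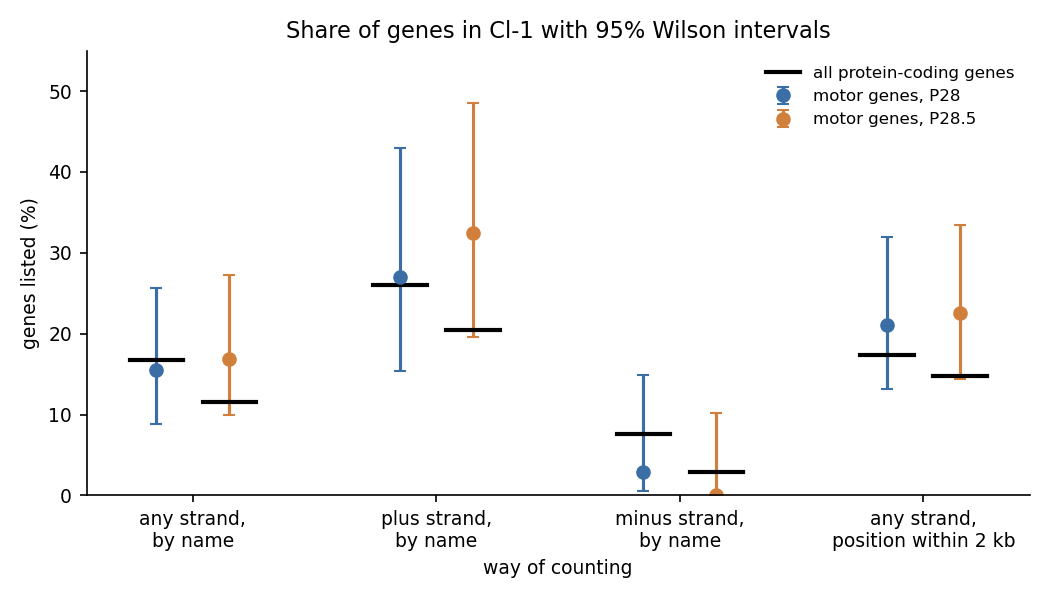
Share of motor genes in Cl-1 (points, with 95% Wilson intervals) and share of all protein-coding genes counted the same way (black bars), in percent, for 4 ways of counting at each age. Every interval holds its black bar; the nearest approach is for positions within 2000 bp at P28.5, where the interval starts at 14.4% and the bar is at 14.8%.

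The genes that act on the spindle and at cytokinesis held 6 of the 16 listed motor genes, 6 of 15 in all, 6 of 8 on the plus strand and 0 of 7 on the minus strand, where 31.6% of all plus-strand and 8.34% of all minus-strand genes were in either list. At each age 5 of the 8 plus-strand genes were listed (26.0% and 20.4% of all plus-strand genes), and 4 were listed at both (14.8% of all). These classes were drawn by known function with the lists' contents already known, so their counts are a description. All 8 plus-strand genes have CpG-rich promoters, and plus-strand genes with such promoters were listed more often, as given below. Kif15, a kinesin-12 that can keep the spindle bipolar beside Kif11, had 4 rows at each age at the same 4 positions, chr9 122951043, 122951065, 122951079 and 122951081. The last is its annotated 5′ end, in its 5′ UTR exon, and the others lie 38, 16 and 2 bp upstream. Kif14, a kinesin-3 of the midbody, had 7 rows at each age, 6 at chr1 136466290, which is 11 bp upstream of its nearest 5′ end, and 1 at 136466405, which is 13 bp downstream of another of its 5′ ends. Both genes were thus listed at the same positions at the 2 ages.

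Both kinesin-6 genes of cytokinesis on the plus strand were listed. Kif20a, which works at the central spindle, was at chr18 34624936 and 34625033 at both ages with 1 row each, and at 34624624 at P28.5 alone. All 3 positions equalled annotated 5′ ends of Kif20a. Its relative Kif20b was listed at P28 alone, with 3 rows at chr19 34922341 and 1 each at 34922353 and 34922358, all within 6 bp of an annotated 5′ end. Kif18a, the kinesin-8 that dampens chromosome oscillations, was listed at P28.5 alone, at its 5′ end chr2 109280738 and 7 bp inside it at 109280745. At P28 the nearest listed position lay 636857 bp from a Kif18a start.

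Kifc5b, a kinesin-14 closely related to the spindle motor Kifc1, had 1 row at each age at its 5′ end, chr17 26917091. Kifc1 lies on the minus strand and was in neither list, with the nearest listed position 18748 bp away at both ages. The 1000 bases centred on the starts of these genes are 85.8% identical in a global alignment, against 49.0% for the starts of Kif3a and Kif3b aligned in the same way. Reads from stretches that match both copies cannot be assigned to 1 of them, so the source of the Kifc5b signal is uncertain to that extent. The plus-strand spindle genes in neither list were Kif11, the motor (Eg5) that separates spindle poles, and Kif4, a chromokinesin of the central spindle. Kif11 lay 309298 bp from the nearest listed position at P28 and 678599 bp at P28.5. Kif4 is X-linked, and of the 512 plus-strand protein-coding X genes the lists held 0 at P28 and 2 at P28.5. Dynlt3, a Tctex light chain on the minus strand and the other X-linked motor gene, was also in neither list, as were all 451 minus-strand X genes.

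On the minus strand, the unlisted spindle genes were Kif2a, Kif2b and Kif2c, which depolymerise microtubules, Kif18b, Kif22, Kif23 and Kifc1. The lists cannot be read as absence of ARID2 at these starts. The 3′ end of Kif22, chr7 127027729, was itself a listed position at both ages, in a row that carries the name of Maz, a minus-strand gene whose 5′ end is 541 bp away.

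**Figure D3:**
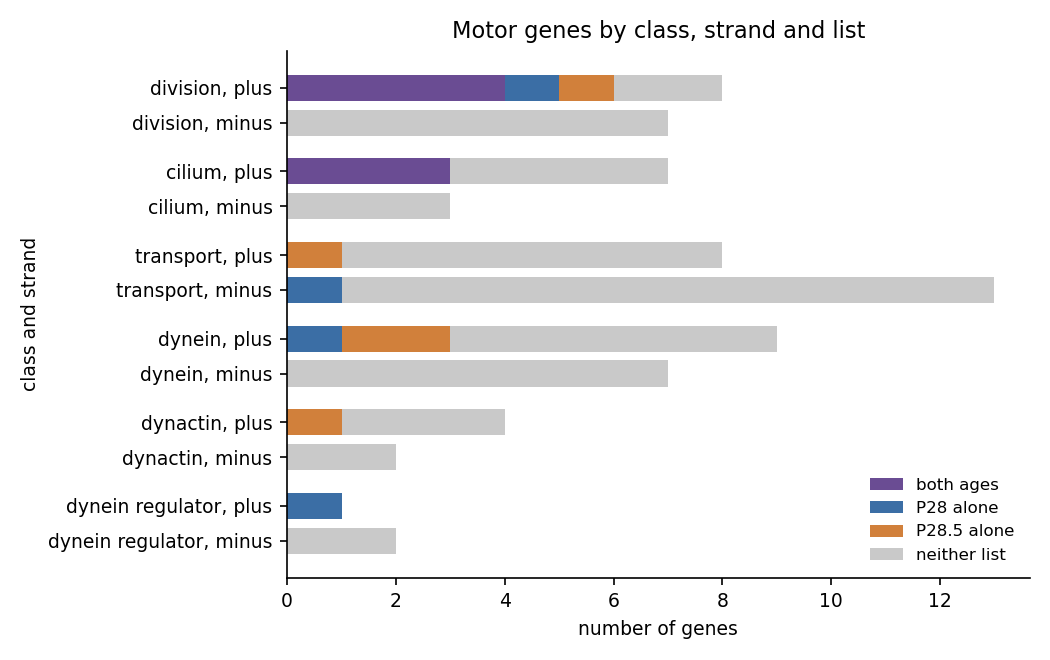
Number of motor genes by class and strand, with colour for the list or lists that hold them (grey, neither list). Plus-strand spindle and cytokinesis genes (division) show 6 of 8 listed, where 31.6% of all plus-strand genes are in either list, and every minus-strand bar is grey but for Klc2 among the transport genes. These 8 genes have CpG-rich promoters, and plus-strand genes with such promoters were listed more often.

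Among kinesins of cilia and flagella, 3 of 10 genes were listed, all 3 on the plus strand and all at both ages. They are 3 of 7 on the plus strand, where 31.6% of all genes were in either list. Of all plus-strand genes 26.0% were listed at P28, 20.4% at P28.5 and 14.8% at both ages. On the minus strand 0 of 3 were listed, beside 8.34% of all genes in either list. Kif3a and Kif3b encode the motor subunits of heterotrimeric kinesin-2, the anterograde motor of intraflagellar transport. Kif3a had 3 rows at each age at chr11 53567369, the downstream of its 2 annotated 5′ ends and 56 bp from the start of A430108G06Rik, a divergent long non-coding RNA (lncRNA). The upstream Kif3a start was not listed. Kif3b was listed at different positions at the 2 ages. At P28.5 the rows lay at chr2 153291416, an annotated 5′ end, and 7 bp upstream of it at 153291409. At P28 the 1 row lay at 153283852, which is 7543 bp upstream and equals the 3′ end of Gm39961, a minus-strand lncRNA whose 5′ end, 153291426, falls at the Kif3b start. The P28 call of Kif3b thus rests on a position that is not a Kif3b start, and with a 2000 bp limit on the distance to an own 5′ end 10 genes were listed at P28 and 6 at both ages.

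Kif9, a kinesin-9 of the sperm flagellum, had 5 rows at 3 positions at both ages. They were chr9 110476958 with 1 row, 110476994 with 3 rows and 110477002 with 1 row, of which the first pair are annotated 5′ ends. Klhl18, a minus-strand neighbour that starts 1 bp from a Kif9 start, gave its name to rows 45 and 132 bp from other Kif9 starts at both ages. The ciliary genes in neither list were Kif3c, Kif6, Kif17 and Kif19a on the plus strand and Kif7, Kif24 and Kif27 on the minus strand.

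Of 21 kinesins and light chains of transport, 2 were listed, 1 of 8 on the plus strand and 1 of 13 on the minus strand. Of all genes, 31.6% on the plus strand and 8.34% on the minus strand were in either list. Kifc2, a minus-end-directed kinesin-14, was listed at P28.5 alone, with 2 rows at chr15 76659835 and 1 at 76659839, which lie 23 and 19 bp upstream of its nearest 5′ end. The difference in age is one of names in part. Rows named for Cyhr1, the overlapping minus-strand gene, stood at 76660039, exactly at another Kifc2 5′ end, and 5 and 6 bp from it at both ages, and at P28.5 they stood at 4 further positions, of which 76660353, again a Kifc2 5′ end, had 8 rows. Klc2, a light chain that joins kinesin-1 to cargo, was the only minus-strand motor gene listed. Its 1 row at P28, chr19 5118844, lies 546 bp upstream of its start, inside the plus-strand lncRNA LOC115489018, and the nearest listed position at P28.5 was 29760 bp away. None of the 3 kinesin-1 heavy chains Kif5a, Kif5b and Kif5c was listed, and of the 8 kinesin-3 genes, which include the vesicle motors Kif1a, Kif1b and Kif1c, Kif14 alone was listed. The other unlisted transport genes were Kif13b, Kif21b, Kif26a, Kif26b and Klc1 on the plus strand and Kif12, Kif13a, Kif16b, Kif21a, Kif28, Kifc3, Klc3 and Klc4 on the minus strand.

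All 3 listed dynein genes encode subunits of dynein-1, the cargo-carrying cytoplasmic form, out of 5 such genes and 4 on the plus strand. Each was in 1 list. Of the dynein genes of every kind, 3 of 9 on the plus strand and 0 of 7 on the minus strand were listed. This stands beside 31.6% of all plus-strand and 8.34% of all minus-strand genes in either list. Dync1li1, a light intermediate chain that binds cargo adaptors, was listed at P28 with 1 row at its only annotated 5′ end, chr9 114688831. Dync1h1, the heavy chain with the motor domain, was listed at P28.5 with 1 row at its 5′ end, chr12 110601395. Dync1i2, an intermediate chain, was listed at P28.5 with 6 rows at chr2 71211834, in a 5′ UTR exon 85 bp inside the nearest start, and 3 rows at 71211946, an annotated 5′ end. At P28 the nearest listed positions to Dync1h1 and Dync1i2 were 135834 and 177314 bp away, and at P28.5 the nearest to Dync1li1 was 42326 bp away. The remaining dynein-1 genes, Dync1i1 and Dync1li2, both dynein-2 genes, Dync2h1 and Dync2li1, and all 9 light chain genes were in neither list. These are Dynll1 and Dynll2 of the LC8 kind, Dynlrb1 and Dynlrb2 of the roadblock kind, and Dynlt1a, Dynlt1b, Dynlt1c, Dynlt1f and Dynlt3 of the Tctex kind, and 4 of them are on the plus strand.

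Dctn5, the p25 subunit of the pointed end of dynactin, was listed at P28.5 alone, with 1 row at its 5′ end, chr7 122133041, and the divergent gene Palb2 starts 61 bp away. The other dynactin genes of the rule, Dctn1, Dctn2, Dctn3, Dctn4 and Dctn6, were in neither list. Listed were thus 1 of 4 dynactin genes on the plus strand and 0 of 2 on the minus strand, beside 31.6% and 8.34% of all genes. Of the dynein regulators, Nde1, which binds LIS1 and dynein, was listed at P28 alone with 4 rows at chr16 14163275, its 5′ end, and at P28.5 the nearest listed position, named for Mir484, was 3649 bp away. Pafah1b1, which encodes LIS1, and Ndel1 lie on the minus strand and were in neither list.

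**Figure D4:**
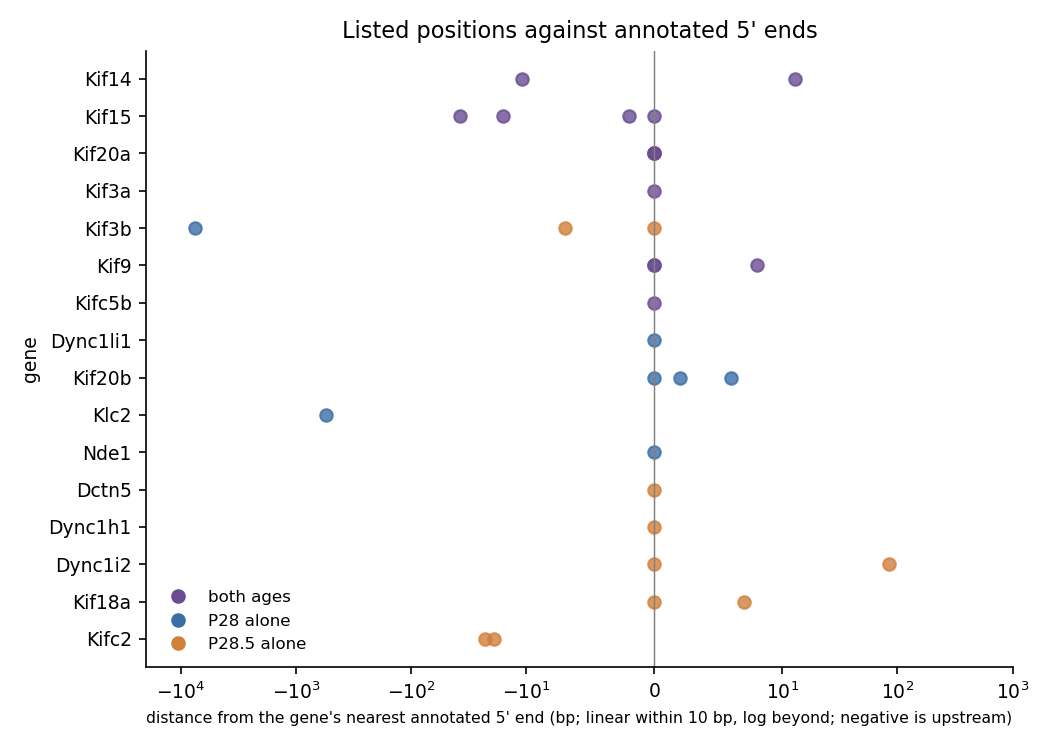
Distance in bp of each of the 31 listed positions from the nearest annotated 5′ end of the motor gene it is named for, linear within 10 bp and logarithmic beyond, with upstream negative and colour for the age. Points cluster at 0, where 16 positions fall, and the 2 far to the left are Klc2 at 546 bp and Kif3b at 7543 bp.

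In all, the motor genes had 34 rows at 20 distinct positions at P28 and 41 rows at 24 positions at P28.5. Of the 31 positions, 13 were shared by the ages, P28 alone had 7 and P28.5 alone 11. An annotated 5′ end of the named gene was matched exactly by 16 positions and lay within 50 bp of 28. Several rows at 1 position repeat the same start under the same name, so a row count is not a measure of ARID2 signal.

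Some unlisted motor genes had a listed start of another gene beside them. Counting every gene with any Cl-1 position no further than 2000 bp from a start gave 15 motor genes at P28 (21.1%, 13.2% to 32.0%) beside 17.3% of all genes. It gave 16 at P28.5 (22.5%, 14.4% to 33.5%) beside 14.8%, and 11 at both ages (15.5%, 8.88% to 25.7%) beside 10.9%. By strand these were 10 of 37 plus-strand and 5 of 34 minus-strand genes at P28 (25.0% and 9.58% of all), and 12 and 4 at P28.5 (20.9% and 8.62% of all). Counted in this way, Kif3b was no longer at P28 and Kifc2 was at both ages. The 4 other genes gained lie on the minus strand next to a plus-strand gene, and were gained at both ages. Klc4, a kinesin-1 light chain, is 12 to 40 bp from 4 listed positions of Mrpl2, which encodes a mitochondrial ribosomal protein. Dynll1, an LC8 light chain, is 130 bp from the listed start of the lncRNA Gm13830. Kif24, a centriolar kinesin-13, is 163 and 229 bp from listed positions of Nudt2, and Kif16b, an endosome motor, is 1356 bp from that of its antisense RNA Kif16bos. For such pairs the ARID2 signal of the shared region cannot be assigned to either gene. The same limit holds for listed motor genes that start close to a minus-strand neighbour. The 5′ ends lie 1 bp apart for Kif9 and Klhl18, 10 bp for Kif3b and Gm39961, and 11 bp for Kifc2 and Cyhr1. They lie 56 bp apart for Kif3a and A430108G06Rik and 61 bp for Dctn5 and Palb2. The 55 unlisted motor genes lay a median of 113234 bp from the nearest listed position at P28 and 123244 bp at P28.5, beside 131497 and 217498 bp for the 17432 protein-coding genes in neither list.

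Vertebrate promoters that are rich in CpG dinucleotides form CpG islands, and genes were more often in Cl-1 the richer their promoter was in CpG. The CpG ratio is the number of CpG dinucleotides over that expected from the C and G present, here over the 1000 bases centred on the start of the gene. From the lowest to the highest of 5 equal bins of CpG ratio, the share of plus-strand genes listed went up at P28 from 8.55% to 46.4%, and at the later age from 3.45% to 47.1%. The motor genes had a median ratio of 0.725, beside 0.516 for all genes, and 24 of 71 were in the highest bin. There 14 motor genes lie on the plus strand, of which the lists held 6 at P28 and 5 at P28.5. In the next bin 13 lie on the plus strand, of which the lists held 3 at P28 and 5 at P28.5, where 39.4% and 33.3% of all such genes were listed. All 8 plus-strand spindle and cytokinesis genes lie in these bins. Their 5 of 8 at each age thus stand beside 39.4% to 46.4% at P28 and 33.3% to 47.1% at P28.5, not only 26.0% and 20.4%.

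The 15 listed plus-strand motor genes had a median ratio of 0.790 and the 22 unlisted ones 0.719, and their ranges, 0.174 to 0.915 and 0.259 to 0.939, overlap almost throughout. Kif11, unlisted at 0.939, had a higher ratio than any listed motor gene, the highest of which was Dync1h1 at 0.915. At the other end stood Kif3a, whose gene start has a ratio of 0.174, but whose listed downstream start lies in sequence that gave 0.711. The 33 unlisted minus-strand motor genes had a median of 0.724, and Kif2a reached 1.09.

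**Figure D5:**
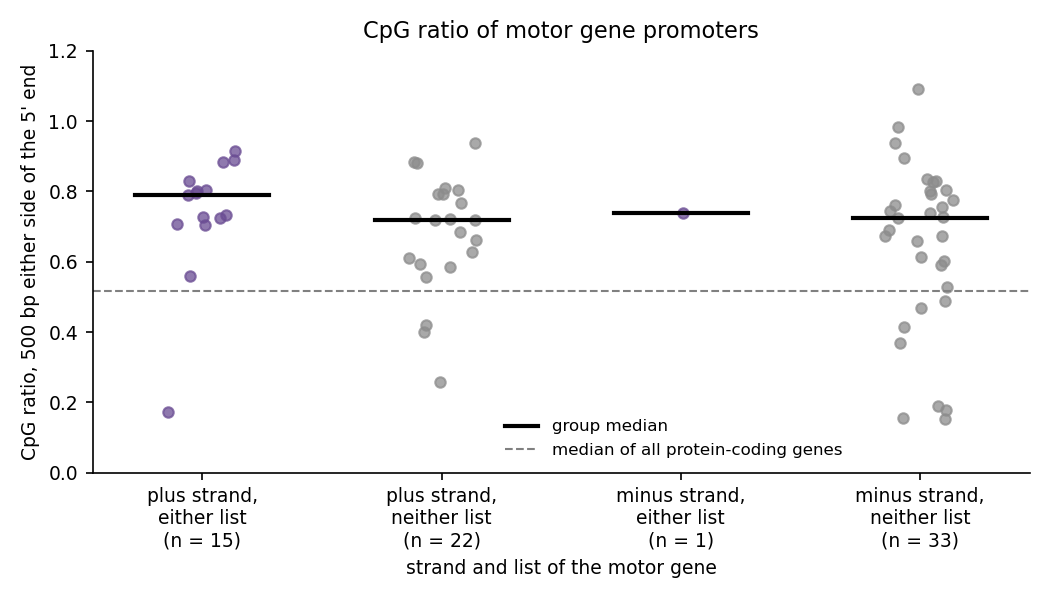
CpG ratio within 500 bp of the 5′ end of each motor gene (points), by strand and by presence in either list, with group medians (black) and the median of all protein-coding genes, 0.516 (dashed). Listed and unlisted plus-strand genes overlap, with medians of 0.790 and 0.719.

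Short motifs were searched on both strands from 250 bases before to 50 bases after each gene's 5′ end, which for Kif3a is its upstream, unlisted start. CCGGAAG, an ETS core, was found in 6 of the 16 listed motor genes (Dctn5, Kif14, Kif20b, Kif9, Kifc5b and Nde1) and in 1 of the 22 unlisted plus-strand motor genes. With the unlisted minus-strand ones it was in 13 of all 71 motor genes, beside 10.2% of all promoters. TTGGCGC, an E2F core, was found in 3 listed motor genes (Kif15, Kif18a and Kifc2), in 0 unlisted plus-strand ones, in 4 of all 71 and in 2.76% of all promoters. CGCATGCG, the core bound by NRF1, was found in Dync1h1 and Dync1li1 among the listed, in 3 of all 71 motor genes and in 2.20% of all promoters. The window printed above for the listed start of Kif3a also holds CGCATGCG, CCAAT and GGGCGG, and these are not in the counts. CCAAT, the NF-Y box, was in 7 of 16 listed and 9 of 22 unlisted plus-strand motor genes and in 38.5% of all, and GGGCGG, the GC box of SP1, was in 10 and 14 of them and in 40.2% of all. TTTGAA, the cell-cycle element called CHR, was in 3 listed and 4 unlisted plus-strand genes and in 17.9% of all. TGACGTCA, the cyclic AMP response element of CREB and CREM, was in Kif18a among the listed genes and in 2 unlisted plus-strand ones. With the unlisted minus-strand ones it was in 5 of all 71 motor genes (7.04%), beside 2.22% of all promoters. The E-box CACGTG was in Kif3a and 1 unlisted plus-strand gene (7.54% of all promoters), and TATAAA in Kif20a, Kif9 and 1 unlisted plus-strand gene (14.3%). The MYB core AACNGTT was in no listed and in 3 unlisted plus-strand motor genes (4.31%). Most of these motifs hold a CpG dinucleotide, and the promoters of the listed motor genes are rich in CpG. No test was made of these counts, and a match is not a bound site.

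Genes that work with the motors but fall outside the naming rule were counted from lists written by function. Of 27 dynein adaptors and cofactors, the lists held 6 at P28 and 4 at P28.5, beside 16.8% and 11.6% of all genes. Among plus-strand genes they held 5 and 4 of 12 (26.0% and 20.4% of all), and on the minus strand 1 and 0 of 15 (7.61% and 2.86%). Bicd2, an adaptor that activates dynein, Hook1 and Hook2, of the hook family of adaptors, and Kntc1, part of the complex that brings dynein to kinetochores, were at both ages, with 3, 1, 15 and 4 rows at each. Rilp, a late endosome adaptor, and Hap1 were at P28 alone with 1 row each, that of Hap1 11874 bp from its start. Of 11 kinesin partners, the lists held 5 at P28 and 3 at P28.5, beside the same 16.8% and 11.6% of all genes. Plus-strand genes among them were 4 and 3 of 6 (26.0% and 20.4% of all). Minus-strand ones were 1 and 0 of 5 (7.61% and 2.86% of all). The minus-strand gene listed was Kifbp, at P28 alone, with its row 19987 bp from its start. Kifap3, the non-motor subunit that joins Kif3a and Kif3b, had 2 rows at each age, and Kif3a and Kif3b were in both lists too, Kif3b at P28 by the row 7543 bp from its start alone. Prc1, the crosslinker of the central spindle on which Kif4 and Kif20a act, had 7 rows at each age. Cenpe, itself a kinesin of kinetochores that its symbol keeps out of the rule, and Fez1, a kinesin-1 adaptor, had 2 rows each at P28 alone, and Tpx2, a spindle assembly factor that binds Kif11 and Kif15, had 8 rows at P28.5 alone. Among 6 further dynactin subunits, 3 on each strand, Actr10 on the plus strand was listed, with 1 row at each age.

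As motors of other kinds, 4 of 20 axonemal dyneins were in the P28 list and 1 at P28.5, and 10 of 50 myosins at P28 and 7 at P28.5. Plus-strand genes among these were 3 and 1 of 10 axonemal dyneins and 9 and 5 of 33 myosins, beside 26.0% and 20.4% of all plus-strand genes. On the minus strand they were 1 and 0 of 10 and 1 and 2 of 17, beside 7.61% and 2.86%.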

How the data were processed

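CUT&RUN libraries of ARID2, BRG1 and a control without primary antibody were aligned by the authors to mm10 with Bowtie2 and handled with SAMtools and deepTools. The authors removed blocklisted regions and duplicates, scaled the tracks with csaw, divided them by the control on a log2 scale, merged replicates as their mean and clustered TSSs on ARID2 signal. The deposited lists hold positions and gene names of Cl-1 at each age and no counts, signal or scores, so 2 ARID2 libraries at each age stand behind averaged values, and the depth of a listed TSS is unknown. The RefSeq release behind the lists is not given in the sources used here, nor is which end of a minus-strand transcript was read for signal. BRG1 libraries, tracks and peaks were not analysed here.

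Positions were read as deposited. Names were matched to the RefSeq annotation of GRCm38.p6 (49597 genes, 121769 transcripts) as written or through a synonym of 1 gene, and genes were counted by name and strand, beside all 21774 protein-coding genes. Distances run to the nearest annotated 5′ end. Shares carry 95% Wilson intervals. Sequences came from the GRCm38.p6 genome of RefSeq. The members, classes and gene lists were chosen with earlier results of these data known. Every member is named or counted, and listed members are named with their rows and positions. At most 8 promoters were shown, none from chromosome 18. Gene matching was tested on simulated lists. Alternatives were other distances, names without synonyms, plus-strand genes alone, members without predicted-only transcripts or shared symbols, distinct positions, the highest CpG ratio over all 5′ ends and a motif window of 100 bases before the start. Python 3.11.15, pandas 2.3.3, scipy 1.17.1, pysam 0.24.0, Biopython 1.88 and matplotlib 3.10.9 were used.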

Additional observations from a re-analysis of the deposited data

How the results depend on the processing

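Of 35 alternative counts of motor genes at the 2 ages, 34 stayed within 1.5 times the count reported. The exception was the number listed at both ages, 7 by name and 11 when positions of any name no further than 2000 bp from a start were counted. Requiring the own name within 2000 bp of an own 5′ end removed Kif3b from P28 and left 10 genes at P28, 6 at both ages and 6 at P28.5 alone. Kif1bp, an older symbol of Kifbp, matches the naming rule in the lists but not in the annotation; counting it, an alternative chosen after seeing the data, gave 12 genes at P28 and 5 at P28 alone. No member had only predicted transcripts or a shared symbol, so that exclusion removed 0 genes. Leaving out synonyms also changed no count, and keeping plus-strand genes alone dropped only Klc2. These alternatives could hardly move, so the 34 of 35 overstates how much was tried. Counted as distinct positions, the 34 and 41 rows became 20 and 24. With the highest CpG ratio over all 5′ ends, the medians were 0.767 for listed motor genes (0.764 at the gene start) and 0.721 for unlisted plus-strand ones. With 100 bases before the start, the share of motor gene promoters with the MYB core was 0% (4.23% with 250) that with TATAAA 4.23% (9.86%), that with the E2F core 2.82% (5.63%; listed motor genes 2 in place of 3) and that with the ETS core 11.3% (18.3%; listed motor genes 4 in place of 6). No paired analysis was possible because the lists come from averaged replicates and no result comes from a test; for the same reason no replicate could be left out. Membership is all that the lists give, and the signal tracks were not analysed here, so the strength of ARID2 signal, its spread and its change between the ages were not examined, and minus-strand starts are poorly covered.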

Other observations

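Outside the protein-coding genes, 5 RefSeq symbols match the naming rule, and of these the lncRNA Kif16bos was listed, at both ages. Kifbp, which encodes a protein that binds kinesins and restrains their motor domains, was listed at P28 under its older symbol at a position 19987 bp from its start.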
